A study of Mus musculus with 6 samples.

Results

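Tubulin isotypes are the gene products from which microtubules are built. The 9 genes named for this comparison were Tubb3, Tubb2a, Tubb2b, Tubb5, Tubb6, Tuba1a, Tuba1b, Tuba4a and Tubg1, of which 8 were measured among the 19938 genes of the study. A gene counted as measured where at least 1 probe set was annotated to its symbol alone. Tuba1b had 0 such probe sets and 4 shared with other tubulin genes, so it is reported as not measured. Each of the 8 measured genes had 1 single-gene probe set.

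The 6 samples were total RNA from brain cells of C57BL/6J mice, taken in vivo and sorted by fluorescence, with 1 Affymetrix whole-transcript array per sample. GFP+ samples (3 arrays) were cortical neural progenitors and RFP+ samples (3 arrays) were their differentiated neuronal progeny, both marked by a dual reporter. The labels give the cortex as source of the GFP+ cells and only the brain for the RFP+ cells. The sources used here give neither the promoters behind the reporters nor the age of the animals. Nothing in the labels says that replicates came from separate animals. The p-values therefore cover only the spread among these 6 samples, which may be technical. The comparison asks how expression differs between progenitors and the neurons made from them.

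Microtubules are hollow polymers of alpha- and beta-tubulin dimers, and gamma-tubulin seeds new ones. Mammals carry several genes for each class, whose proteins differ mostly in their acidic tails, where motors, associated proteins and modifying enzymes act. In a dividing progenitor microtubules form the mitotic spindle, and in a young neuron they fill the axon and dendrites. Mutations in several isotype genes, among them Tuba1a, Tubb2b and Tubb3, are known to disturb cortical development.

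All 9 progenitor markers and all 7 markers of dividing cells measured were higher in GFP+ arrays, and all 11 neuron markers measured were higher in RFP+ arrays, with a median log2 difference of -1.67 for the last. Neuron marker transcripts were also bright in GFP+ arrays, where their summed intensity ran from 18058 to 23691 against 55494 to 60835 in RFP+. Nefl was the exception, with a GFP+ mean of 37.8. The next dimmest, Rbfox3, averaged 927 in GFP+. GFP+ arrays also held more signal of 10 endothelial markers (summed intensity 3492 to 8401, against 1298 to 1517), of 7 of 10 pericyte and mural markers (list sum 6107 to 7746, against 1848 to 1951) and of 4 of 7 oligodendrocyte lineage markers (list sum 1541 to 2361, against 649 to 876). Microglia and macrophage markers summed to 1233 to 1837 in GFP+ and 1718 to 2095 in RFP+, with 1 of 10 (Trem2) called. Trem2 was higher in RFP+ (log2 difference -0.75) and dim in both groups (means 107 in GFP+ and 190 in RFP+). Interneuron markers summed to 9871 to 10722 in GFP+ and 4439 to 10137 in RFP+, and 2 of 7 were called higher in GFP+. None of 5 erythroid markers was called by limma (2 higher in GFP+ at an unadjusted p under 0.05; summed intensity 621 to 1401 in GFP+, 556 to 749 in RFP+). No marker of these lists was at 0 in all 6 arrays. The part of other cell types in the results below was not tested. In bulk RNA of sorted cells, fewer cells of a type and less RNA per cell cannot be told apart.

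Every measured isotype had a lower mean in GFP+ progenitors than in RFP+ neurons, and 6 of the 8 were called higher in RFP+ neurons: Tubb3, Tubb2a, Tubb2b, Tubb5, Tubb6 and Tuba4a. None was called higher in GFP+ progenitors, by limma's adjusted p or at an unadjusted p under 0.05. Across all genes 30% were called, 16.2% as higher in RFP+ and 13.8% as higher in GFP+. These calls do not use pairing by replicate number. With arrays blocked by that number, 7 members and 37% of all genes were called. The differences were modest. On the log2(intensity + 16) scale, GFP+ minus RFP+, they ran from -0.98 for Tuba4a to -0.20 for Tubg1 with a median of -0.75, where the median over all genes was -0.08. For 7 of the 8 genes the 3 RFP+ arrays all lay above the 3 GFP+ arrays, as they did for 24.1% of all genes. A call here means a Benjamini-Hochberg adjusted p under 0.05 over all genes, and folds are on the same log2 scale, which understates changes of dim genes. Intensities of different probe sets are not on 1 scale, so levels are compared only within a gene.

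**Figure D1:**
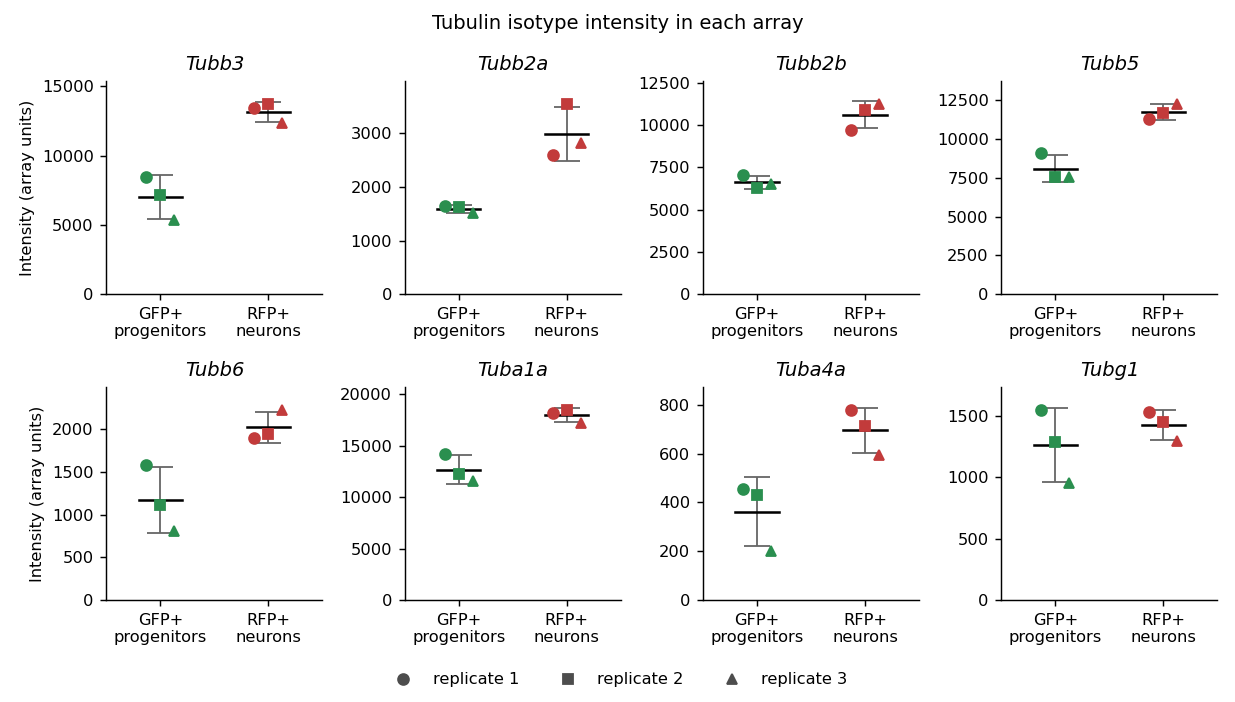
Intensity of the 8 measured isotypes (vertical axes, array units, each from 0) in GFP+ progenitors (green) and RFP+ neurons (red). Points are single arrays with the marker shape giving the replicate, black lines the means and grey bars 1 SD of 3 arrays. For all but Tubg1 the groups are apart.

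Tubb3 encodes the beta-tubulin that is widely used as a marker of neurons. Its intensity was 8474, 7187 and 5372 in GFP+ replicates 1 to 3 and 13396, 13729 and 12347 in RFP+ replicates 1 to 3. The groups did not overlap, yet signal was far from absent in the GFP+ arrays, whose mean was 46.7% below that of the RFP+ arrays. Neuron marker transcripts other than Nefl were bright in the GFP+ arrays too. Their source, and whether the Tubb3 probe set also binds other isotypes, was not tested. Tubb3 was 1.91-fold higher in RFP+ neurons (log2 difference -0.93 ± 0.21 SE, adjusted p = 0.00220). The GFP+ arrays spread more widely than the RFP+ arrays, with coefficients of variation of 22.2% and 5.48%. The 11 neuron markers gave log2 differences from -3.12 (Nefl, a neurofilament gene) to -0.74 (Dcx, a microtubule-binding protein gene of young neurons), a range that holds that of Tubb3.

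Tubb2a and Tubb2b encode near-identical beta-tubulins that are abundant in developing brain, and stand next to each other in the RefSeq gene order with 0 protein-coding genes between them. Tubb2a gave 1651, 1629 and 1509 in GFP+ replicates 1 to 3 and 2592, 3551 and 2824 in RFP+. The progenitor arrays lay close together and RFP+ replicate 2 was the highest. Tubb2a was 1.85-fold higher in RFP+ neurons (log2 difference -0.89 ± 0.20 SE, adjusted p = 0.00225). Tubb2b gave 7038, 6296 and 6494 in GFP+ replicates 1 to 3 and 9709, 10857 and 11247 in RFP+. It was 1.6-fold higher in RFP+ neurons (log2 difference -0.68 ± 0.20 SE, adjusted p = 0.0127), a call that ended without RFP+ replicate 3 (adjusted p = 0.0505). A probe set shared by both genes and a pseudogene was left out. Whether the probes kept for each gene tell the copies apart was not tested, since probe sequences were not used here.

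Tubb5, a broadly expressed beta-tubulin gene, gave 9083, 7560 and 7566 in GFP+ replicates 1 to 3. In RFP+ replicates 1 to 3 it gave 11276, 11667 and 12256, all above the progenitors. At 1.46-fold its log2 difference of -0.54 ± 0.20 SE passed narrowly (adjusted p = 0.0443). The call ended when any 1 of 5 arrays was left out: GFP+ replicate 2 (adjusted p = 0.101), GFP+ replicate 3 (0.0951), RFP+ replicate 1 (0.0986), RFP+ replicate 2 (0.105) or RFP+ replicate 3 (0.121). It also ended with quantile normalization (adjusted p = 0.0757) and with log2(intensity + 1) (0.0559).

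Tubb6 is a beta-tubulin gene known mainly from tissues outside the nervous system. Its intensity was 1577, 1113 and 809 in GFP+ replicates 1 to 3 and 1891, 1937 and 2219 in RFP+. GFP+ replicate 1 came near the neurons and replicate 3 lay far below them. Tubb6 was 1.78-fold higher in RFP+ neurons (log2 difference -0.83 ± 0.23 SE, adjusted p = 0.0101), and the call ended without GFP+ replicate 3 (log2 difference -0.60, adjusted p = 0.0572). Endothelial markers summed to 3492, 6585 and 8401 in GFP+ replicates 1 to 3, the reverse order of Tubb6. This order was not particular to Tubb6: Tubb3, Tubb2a, Tuba1a, Tuba4a and Tubg1 also fell from replicate 1 to 3. Tubb2b and Tubb5 did not. The part of endothelial cells in these values was not tested.

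Of the alpha-tubulins, Tuba1a is the main isotype gene of postmitotic young neurons. It gave 14238, 12271 and 11556 in GFP+ replicates 1 to 3 and 18240, 18492 and 17222 in RFP+ replicates 1 to 3. The groups did not overlap, and the mean was 29.4% lower in GFP+. Even so the log2 difference of -0.51 ± 0.20 SE did not pass (adjusted p = 0.0597; 95% interval -0.92 to -0.09, not adjusted over genes). It passed when arrays were blocked by replicate number (adjusted p = 0.0305) and without GFP+ replicate 1 (0.0481). It also passed with each array centred on its median (0.0416), without the dimmest 30% of genes (0.0330), with log2(intensity + 64) (0.0195) and with an intensity trend (0.00210). Tuba1a lies between Tuba1b and Tuba1c in the RefSeq gene order. Neither neighbour had a probe set of its own.

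Tuba4a, an alpha-tubulin gene of mature neurons and platelets, had the widest spread of the members among GFP+ arrays (coefficient of variation 38.6%, against 13.5% in RFP+). GFP+ replicates 1 to 3 gave 455, 431 and 202, and RFP+ replicates 1 to 3 gave 778, 712 and 593. GFP+ replicate 3 was below every other array and under 211, a near-background guide described below, yet the groups did not overlap. Tuba4a was 1.97-fold higher in RFP+ neurons (log2 difference -0.98 ± 0.26 SE, adjusted p = 0.00660). Without GFP+ replicate 3 the log2 difference was -0.62 and the gene was still called (adjusted p = 0.0413). It was then smaller in size than those of Tubb3 (-0.75) and Tubb2a (-0.85), so its place as the largest rests on that array.

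Tubg1 encodes gamma-tubulin, the subunit of the ring complex that nucleates microtubules at centrosomes and spindles. It gave 1545, 1285 and 951 in GFP+ replicates 1 to 3 and 1530, 1445 and 1293 in RFP+. The groups overlapped, and no difference was called (log2 difference -0.20 ± 0.22 SE, adjusted p = 0.516). The 95% interval of -0.65 to 0.26 leaves room for a moderate difference either way. Tubg1 was the only member measured whose groups overlapped.

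The remaining tubulin genes mostly went the same way. Of 9 other tubulin genes measured, 6 were called higher in RFP+ neurons, against 16.2% of all genes. None was called higher in GFP+ by limma, adjusted or at an unadjusted p under 0.05 (median log2 difference -0.70). Tubb4a, a beta-tubulin gene of neurons and oligodendrocytes, was 2.52-fold higher in RFP+ neurons, a larger fold than that of any member (log2 difference -1.33 ± 0.21 SE, adjusted p = 4.73e-05). Its intensities were 1906, 1653 and 1341 in GFP+ replicates 1 to 3 and 4095, 4534 and 3700 in RFP+. Tubg2, the second gamma-tubulin gene and a direct neighbour of Tubg1, was 2.53-fold higher (log2 difference -1.34 ± 0.22 SE, adjusted p = 9.11e-05). It gave 261, 340 and 206 in GFP+ and 668, 827 and 598 in RFP+ replicates 1 to 3. The GFP+ replicate 3 value lay under the near-background guide of 211, so the size of the Tubg2 fold is uncertain. Within each array, log2 Tubg2 minus log2 Tubg1 averaged -2.16 ± 0.31 in GFP+ and -1.02 ± 0.20 in RFP+ (SD, n = 3 arrays each), with no overlap. This pair was picked after its values were seen and has no test.

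Tuba3a and Tuba3b, alpha-tubulin genes better known from testis, were measured too, as was Tubal3. Tuba3a was 1.98-fold higher in RFP+ neurons (log2 difference -0.99, adjusted p = 0.00136) and Tuba3b 2.14-fold (log2 difference -1.10, adjusted p = 0.00160). Tubal3 (log2 difference -0.60, adjusted p = 0.0317) lost its call without GFP+ replicate 3 (adjusted p = 0.101), RFP+ replicate 1 (0.0812) or RFP+ replicate 2 (0.123). Tuba3b and Tubal3 were dim: in both groups their means lay under 211 in GFP+ and 206 in RFP+, the level below which 95% of olfactory receptor genes fell, taken as a guide to near-background signal. Tubb1, the beta-tubulin gene of platelets, gave 1829, 1460 and 1294 in GFP+ and 2233, 2356 and 2862 in RFP+ replicates 1 to 3 (log2 difference -0.70, adjusted p = 0.0155). Its call ended without GFP+ replicate 3 (adjusted p = 0.0563) or RFP+ replicate 3 (0.0772). Whether these probe sets also bind transcripts of other isotypes was not tested. Tuba8 did not pass (log2 difference -0.26, adjusted p = 0.355). Neither did Tubd1 (log2 difference 0.07, adjusted p = 0.831) and Tube1 (log2 difference 0.11, adjusted p = 0.740), which encode the delta- and epsilon-tubulins of centrioles.

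By class, 7 of 7 measured beta-tubulin genes, 4 of 6 alpha-tubulin genes, 1 of 2 gamma-tubulin genes and 0 of 2 delta- and epsilon-tubulin genes were called higher in RFP+ neurons. Over all genes the share was 16.2%. Several calls lay near the threshold: those of Tubb2b, Tubb5, Tubb6, Tubb1 and Tubal3 each ended without at least 1 of the arrays. Tuba1a, not called, passed under 6 of the 15 alternatives. The difference between classes was not tested.

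**Figure D2:**
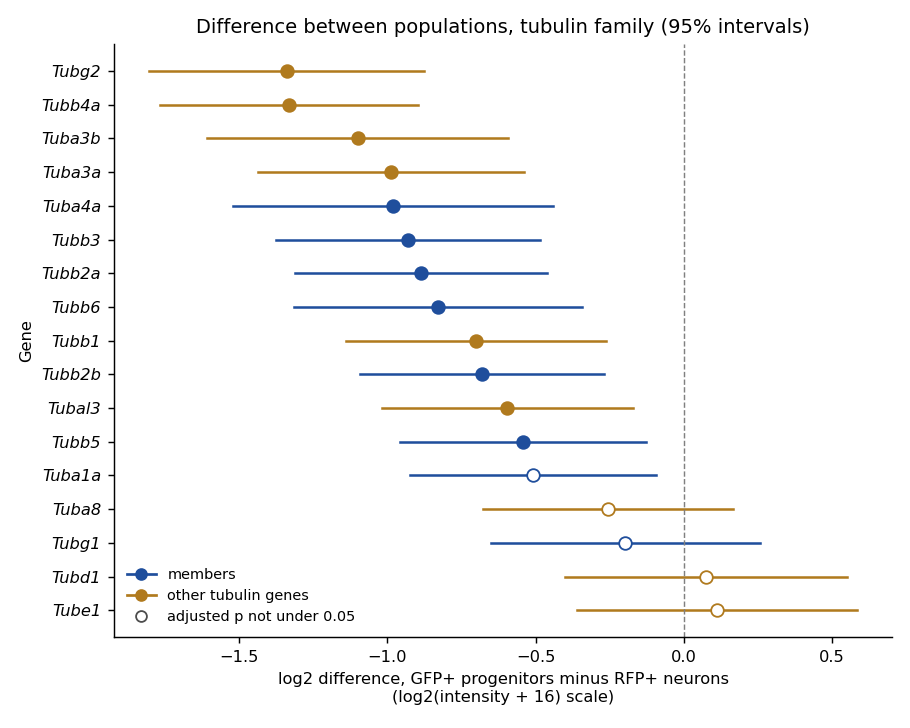
Log2 difference, GFP+ progenitors minus RFP+ neurons (horizontal axis), for 17 tubulin genes, with 95% intervals, members in blue and other tubulin genes in brown. Filled points passed an adjusted p under 0.05. Tubg2 and Tubb4a lie farthest to the left, at -1.34 and -1.33, and Tubg1, Tubd1 and Tube1 lie near 0.

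Isotypes were also set against each other within each array, which compares their changes without comparing their levels. Such a difference can still depend on the offset, on how each probe set responds and on binding of other isotypes. These were not tested. Log2 Tubb3 minus log2 Tubb5 was -0.10, -0.07 and -0.49 in GFP+ replicates 1 to 3 and 0.25, 0.23 and 0.01 in RFP+. The groups did not overlap and the means differed by -0.39 (exact permutation test, two-sided, p = 0.1, adjusted p = 0.3 over 3 pairs). The smallest p that 3 arrays against 3 allow is 0.1, so this test could not pass for any pair and is given for its size and direction only. Between arrays of the same replicate number Tubb3 minus Tubb5 differed by -0.35, -0.31 and -0.50, where the lack of overlap already fixes the sign. Tubb2a minus Tubb2b averaged -2.04 ± 0.09 in GFP+ and -1.83 ± 0.20 in RFP+ (SD), a difference of -0.21 with overlapping groups (exact permutation p = 0.2, adjusted p = 0.3). By replicate number it differed by -0.18, -0.33 and -0.11, all of 1 sign. Tubb3 minus Tubb6 differed by -0.10 between groups, also with overlap (exact permutation p = 0.5, adjusted p = 0.5), and by replicate number by -0.40, -0.14 and 0.24. The pairs with Tuba1b could not be measured.

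Within the progenitor group the isotypes shared much of their order over the arrays. GFP+ replicate 1 was the highest GFP+ array for all 8 members and for 15 of the 17 tubulin genes measured. It was the highest for 29.6% of all genes and for 24.0% of the 4702 genes with a mean intensity over 1000, a range that holds 7 of the 8 members. GFP+ replicate 3 was the lowest for 6 of the 8 members, against 37.0% of all genes. The deviations from the group mean were largest for Tuba4a and Tubb6 and small for Tubb2a and Tubb2b. The same array, GFP+ replicate 1, had the lowest sum of neuron markers (18058, against 23691 and 21552 in replicates 2 and 3) and of endothelial markers. In the RFP+ group replicates 1, 2 and 3 were the highest for 2, 3 and 3 members and the lowest for 4, 0 and 4. Of the 17 tubulin genes, RFP+ replicate 2 was the highest for 8 and the lowest for 2. What sets GFP+ replicate 1 apart was not tested.

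**Figure D3:**
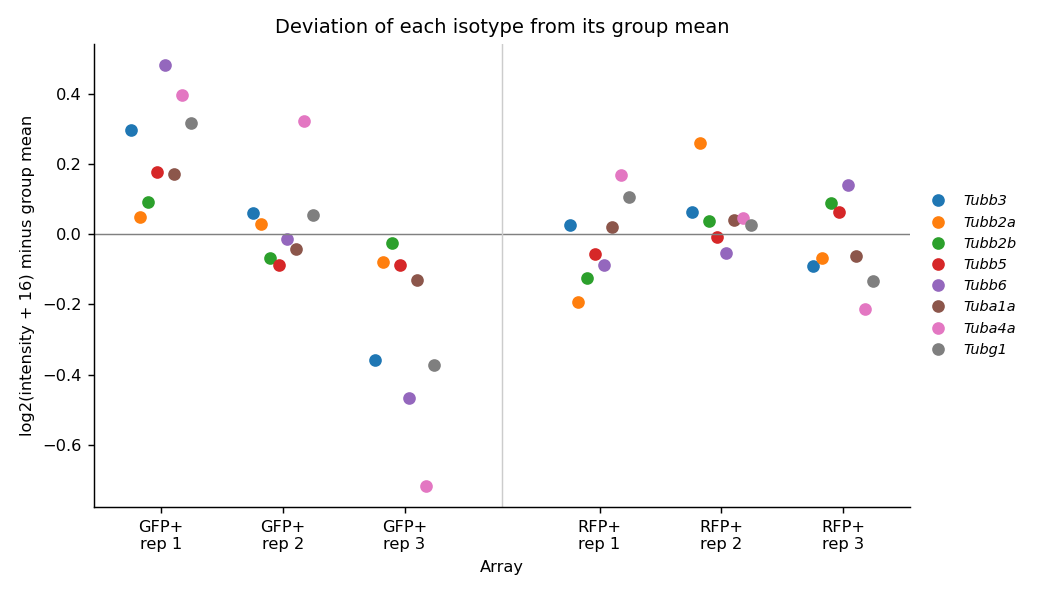
Deviation of log2(intensity + 16) from its group mean (vertical axis) for each of the 8 isotypes (colours) in each array (horizontal axis). All 8 points lie above 0 in GFP+ replicate 1, and those of Tuba4a, Tubb6, Tubg1 and Tubb3 lie lowest in GFP+ replicate 3.

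Among members, the closest profiles over the 6 arrays were those of Tubb5 and Tuba1a, with a root mean square difference of 0.07 in log2 values centred on each gene's mean. Tubb5 and Tubb2b came next at 0.09. The least alike were Tuba4a and Tubg1 at 0.43. Over all genes, those nearest to Tubb3 by this measure were Podn, a small proteoglycan gene (0.06, log2 difference -1.02), Ccdc73 (0.06, log2 difference -0.98) and Kifc3, a minus-end kinesin gene (0.07, log2 difference -0.93). They were dim, with mean intensities of 198, 74.1 and 370 in RFP+, and this likeness over 6 arrays is a description only.

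Start-site sequences of the isotypes were then compared, of which Tubb3, Tubb2a, Tubb5 and Tuba4a were called higher in RFP+ neurons and Tuba1a was not called. RefSeq windows (GRCm38.p6) were used for 6 of the 9 genes, 5 of them measured. The last 120 bases before the annotated start of those 5 are shown 5′ to 3′ on the gene's strand, with the letters TATAA and CCAAT, read on either strand, in capitals.
Tubb3: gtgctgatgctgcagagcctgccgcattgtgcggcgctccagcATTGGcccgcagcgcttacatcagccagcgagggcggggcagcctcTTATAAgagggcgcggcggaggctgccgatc
Tubb2a: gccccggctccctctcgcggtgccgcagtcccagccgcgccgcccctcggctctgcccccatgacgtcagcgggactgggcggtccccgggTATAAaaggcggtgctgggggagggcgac
Tubb5: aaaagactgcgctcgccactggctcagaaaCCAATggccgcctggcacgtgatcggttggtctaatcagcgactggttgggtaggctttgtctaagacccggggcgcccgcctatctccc
Tuba1a: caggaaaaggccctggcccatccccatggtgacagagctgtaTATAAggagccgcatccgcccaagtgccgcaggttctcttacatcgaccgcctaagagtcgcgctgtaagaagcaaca
Tuba4a: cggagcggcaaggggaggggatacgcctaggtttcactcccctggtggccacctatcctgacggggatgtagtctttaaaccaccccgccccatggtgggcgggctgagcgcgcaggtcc

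These stretches lie at chr8:123411433-123411552 (plus strand, Tubb3), chr13:34078009-34078128 (minus strand, Tubb2a), chr17:35838302-35838421 (minus strand, Tubb5), chr15:98953502-98953621 (minus strand, Tuba1a) and chr1:75219295-75219414 (minus strand, Tuba4a). TATAA is the core of the TATA box, which positions transcription starts, and CCAAT is the core of the site of the factor NF-Y. In Tubb3 the overlapping matches on both strands span positions -31 to -26 from the start, and in Tubb2a the match spans -29 to -25. In Tuba1a it lies farther out, at -78 to -74. CCAAT was found at -77 to -73 in Tubb3 (opposite strand), at -90 to -86 and -198 to -194 in Tubb5 and at -176 to -172 in Tuba1a, some of these outside the stretch shown. Tuba4a held neither within 250 bases, and neither did Tuba1b. Over 32851 RefSeq windows, 22.8% held TATAA and 33.8% held CCAAT within 250 bases before the start. No arrangement of these letters was shared by all 5, and a match is a description of the sequence, not a site.

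The genes that fold, modify and nucleate tubulin did not move as a block. Folding of alpha- and beta-tubulin needs prefoldin, the chaperonin CCT and cofactors that join the dimer. Of 24 folding genes measured, 3 were called higher in RFP+ neurons, where 16.2% of all genes were, so this count did not stand out. By limma none was higher in GFP+ (1 at an unadjusted p under 0.05), and the median log2 difference was -0.08, the same as over all genes. The chaperonin genes, Tcp1 and the Cct genes, gave 0 calls in 9 by limma, with log2 differences of -0.48 to 0.38. Alternatives did call some: Cct2 was higher in RFP+ with the replicate block (adjusted p = 0.0396), log2(intensity + 64) (0.0411), an intensity trend (0.0149) and without GFP+ replicate 3 (0.0461). Cct4 was higher in RFP+ with log2(intensity + 64) (0.0367) and an intensity trend (0.0207). All 3 called genes are named, 1 of them (Tbce) after its values were seen. They were the cofactor genes Tbcd (log2 difference -0.65, adjusted p = 0.0171) and Tbce (-0.64, adjusted p = 0.0450) and the prefoldin subunit gene Vbp1 (-0.64, adjusted p = 0.0340). These calls were fragile, and the count went from 3 to 0 without RFP+ replicate 3 and to 1 without RFP+ replicate 1 or GFP+ replicate 1. Tbcd lost its call without RFP+ replicate 2 (adjusted p = 0.0616) or 3 (0.0543). Vbp1 lost it without GFP+ replicate 1 (0.133) or 3 (0.0526) or RFP+ replicate 1 (0.153) or 3 (0.0884). Tbce lost it without GFP+ replicate 1 (0.0999) or 2 (0.137) or RFP+ replicate 1 (0.177) or 3 (0.170).

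Enzymes that act on the tubulin tails and on lysine acetylation were often higher in the neurons. Of 25 modification genes measured, 10 had calls toward RFP+ neurons, against 16.2% of all genes. Toward GFP+ progenitors 1 had a call, against 13.8% of all genes, and the median log2 difference of the list was -0.46. Some calls toward RFP+ were fragile. Ttll3 lost its call when any 1 of 5 arrays was left out, and Ttll13 and Agbl5 when any 1 of 4 was. Ttll13 also lay under the near-background guide in both groups. The largest fitted differences were those of Ttll7, a polyglutamylase gene that acts on beta-tubulin tails (2.44-fold, log2 difference -1.29, adjusted p = 3.19e-05), and Ttll1, the catalytic subunit of another polyglutamylase (2.25-fold, log2 difference -1.17, adjusted p = 9.48e-05). Ttll7 gave 161, 150 and 151 in GFP+ replicates 1 to 3 and 382, 403 and 412 in RFP+. All 3 GFP+ values lay under the near-background guide of 211, so the size of its fold is uncertain. Ttll4, also a glutamylase gene, went the other way. Its mean was 1.81-fold higher in GFP+ (log2 difference 0.86, adjusted p = 0.00262), with 2388, 2589 and 2940 in GFP+ and 1540, 1508 and 1299 in RFP+.

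Other enzymes are named for their roles, after their values were seen. Ttl, the ligase that returns the terminal tyrosine of alpha-tubulin, was 2.09-fold higher in RFP+ neurons (log2 difference -1.07, adjusted p = 6.57e-04). Genes of the carboxypeptidase that removes this tyrosine were higher in the same arrays, Vash2 at 2.10-fold (log2 difference -1.07, adjusted p = 4.20e-04) and its partner Svbp at 1.74-fold (log2 difference -0.80, adjusted p = 0.0165). The Svbp call ended without GFP+ replicate 1 (adjusted p = 0.0710), GFP+ replicate 3 (0.0605) or RFP+ replicate 2 (0.102). Agtpbp1, a deglutamylase gene, was 2.24-fold higher (log2 difference -1.16, adjusted p = 3.21e-04). Atat1, the alpha-tubulin acetyltransferase, was 1.96-fold higher (log2 difference -0.97, adjusted p = 6.73e-04), and the deacetylase genes Hdac6 (-0.51, adjusted p = 0.0559) and Sirt2 (-0.46, adjusted p = 0.102) did not pass. With arrays blocked by replicate number both were called higher in RFP+ (adjusted p = 0.0277 and 0.0485), and Hdac6 was called under 6 of the 15 alternatives.

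Nucleation and severing genes leaned to the progenitors, as Tubg1 did not. Of 25 measured, 8 had calls toward GFP+ progenitors, against 13.8% of all genes. Toward RFP+ neurons 1 had a call, against 16.2% of all genes, and the median log2 difference of the list was 0.45. Fignl1, of the fidgetin family of severing enzymes and also known from DNA repair, led with 4.50-fold (log2 difference 2.17, adjusted p = 4.43e-06). Nedd1, which brings the gamma-tubulin ring to the spindle, was 2.84-fold higher (log2 difference 1.5, adjusted p = 7.30e-06), at 686, 645 and 717 in GFP+ replicates 1 to 3 against 206, 220 and 269 in RFP+. Of 7 genes of augmin, the complex that seeds microtubules on existing ones in the spindle, 4 were called higher in GFP+ (Haus1, Haus2, Haus5 and Haus6, named after their values were seen) and none in RFP+ by limma, adjusted or at an unadjusted p under 0.05. Haus5 lost its call without GFP+ replicate 1 (adjusted p = 0.0545) or RFP+ replicate 2 (0.0865). Tubgcp4, also called higher in GFP+, lost its call when any 1 of 4 arrays was left out. Katnal2, called higher in GFP+ too, lay under the near-background guide in both groups (means 144 and 53.9). The gene called higher in RFP+ neurons was Akap9, a scaffold of centrosome and Golgi microtubules (log2 difference -0.72, adjusted p = 0.0137). Its call ended without GFP+ replicate 2 (adjusted p = 0.0568) or RFP+ replicate 3 (0.0635). Markers of dividing cells were higher in the same GFP+ arrays, with a median log2 difference of 2.38, and their part in these calls was not tested.

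**Figure D4:**
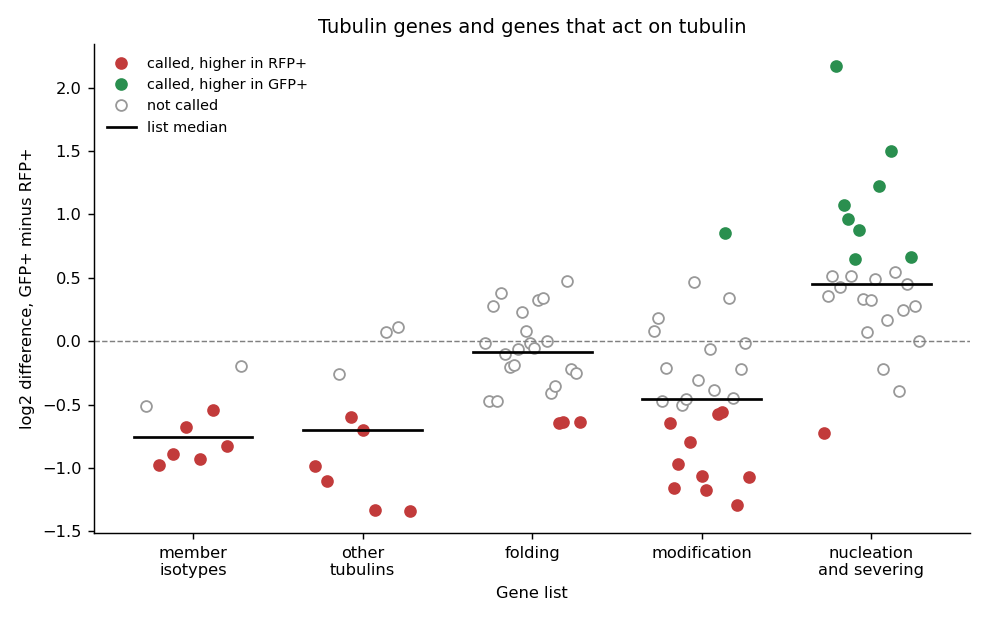
Log2 difference, GFP+ minus RFP+ (vertical axis), of each gene in 5 lists (horizontal axis). Red points were called higher in RFP+ neurons, green points higher in GFP+ progenitors, open points not called, and black lines are list medians, which run from -0.75 for the members to 0.45 for nucleation and severing.

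**Figure D5:**
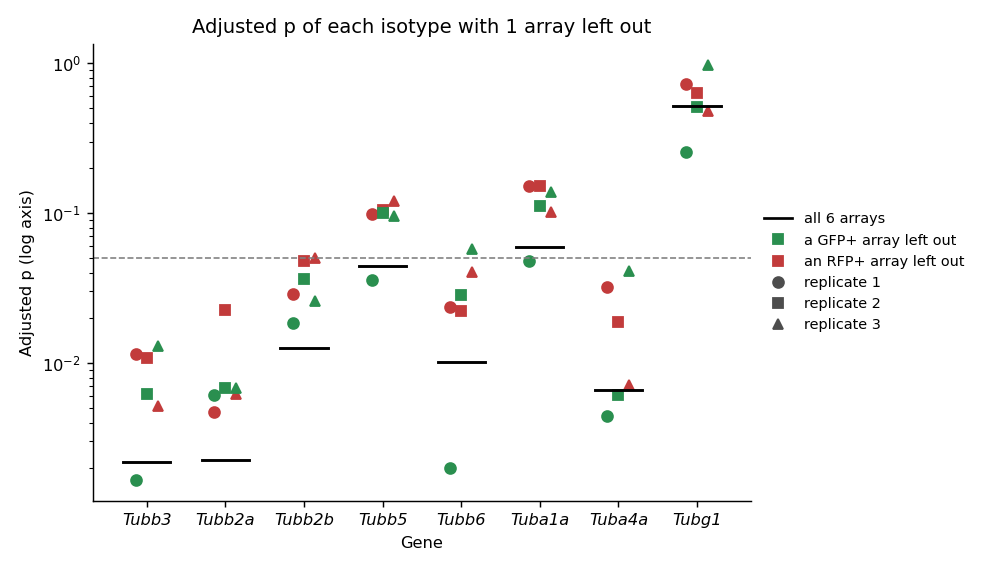
Adjusted p (vertical log axis) of each member with all 6 arrays (black lines) and with 1 array left out (green, a GFP+ array; red, an RFP+ array; marker shape, replicate). Tubb3, Tubb2a and Tuba4a stay under 0.05, the dashed line, whichever array is left out, and Tubb5 moves over it for 5 of the 6.

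Leaving out 1 array at a time kept the calls of Tubb3 (adjusted p = 0.00166 to 0.0129), Tubb2a (0.00471 to 0.0225) and Tuba4a (0.00443 to 0.0413). The number of members called then ran from 4 to 7 of 8, and all 8 log2 differences stayed under 0.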

How the data were processed

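Intensities per probe set, on a linear scale, were those deposited by the authors, who used the Affymetrix Expression Console per the submitters' processing notes. The sources used here do not state its version, background correction, normalization or summarisation. Array medians ran from 210.31 to 221.1. Of 35557 probe sets, 21789 carried 1 gene symbol (platform annotation), 1621 several and 12147 are unnamed here. The probe set with the highest mean was kept per gene.

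Log2(intensity + 16) was fitted over all 19938 genes and 6 arrays with limma 3.58.1 (lmFit, eBayes; R 4.3.3), GFP+ minus RFP+, two-sided, with Benjamini-Hochberg adjustment, after testing on simulated data. The number of arrays limits precision (median SE 0.215). Exact permutation tests used scipy 1.17.1.

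Members, gene lists and named genes (all members and other tubulins; in the other lists the 2 largest called differences each way; the 3 profiles nearest to Tubb3) were chosen with earlier results of these data known. Other genes were named after their values were seen: Tbce, Cct2, Cct4, Ttll3, Ttll13, Agbl5, Ttl, Vash2, Svbp, Agtpbp1, Atat1, Hdac6, Sirt2, Tubgcp4, Katnal2, the augmin genes and the markers. Pairing by replicate number was checked: deviations of same-numbered GFP+ and RFP+ arrays correlated at 0.204, 0.288 and 0.361 across genes, over 0.1 for every pair, so the numbers were taken to pair the samples. The fit without the block was kept as planned, so the calls, SEs and exact permutation tests reported do not use this pairing. The block was an alternative, beside other offsets, quantile normalization, median centring, a filter on dim genes, averaged probe sets, an intensity trend, array weights and left-out arrays.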

Additional observations from a re-analysis of the deposited data

How the results depend on the processing

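Over the 15 alternatives, all 8 members kept a log2 difference under 0, and the number called, 6, ran from 4 to 7 and never included one higher in GFP+. Over all genes 4506 to 7371 were called (5978 as reported; 7371 with the replicate number as a block). The counts for the other tubulin genes (4 to 6), modification genes (8 to 13) and nucleation and severing genes (7 to 13) stayed within 1.5 times of the reported ones. The count of folding genes, 3, did not: it was 5 with the replicate block, 1 with log2(intensity + 1), 6 with log2(intensity + 64), 5 with an intensity trend and robust moderation, and 0 to 3 with 1 array left out. The causes were not tested. With the block 7 members were called, Tuba1a (adjusted p = 0.0305) joining the other 6, and the median log2 difference over all genes moved from -0.08 to -0.12 with median centring. Median centring and quantile normalization left the direction of every member as reported. Tubulin genes are near-copies of each other, and how far each probe set is specific was not tested.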
